A study of Saccharomyces cerevisiae with 12 samples.

Results

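The genes described here are 109 yeast genes that had only a systematic name on the array, such as YLL034C, and whose transcripts were low late in both starvations. They were chosen by their values on the 6 late arrays (120, 240 and 480 min of carbon or nitrogen starvation). On each of these arrays the log2 ratio of starved over pre-starvation signal had to be -1.2 or lower, with the pre-starvation signal well above background. Of 6256 genes on the array 2118 had no other name, 3 of those were left out by name, and 1384 had a pre-starvation signal well above background on all 6 late arrays. By the same thresholds 471 named genes qualified, so that 11.2% of the 5199 genes with such a pre-starvation signal, those 3 included, met them.

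All cells were of strain FY4, a prototrophic laboratory strain of Saccharomyces cerevisiae with mating type a, grown on nitrocellulose filters in minimal medium (YNB) with glucose and ammonium. Filters were moved to medium with ammonium and no glucose (carbon starvation) or with glucose and no ammonium (nitrogen starvation), and 1 array was made at each of 10, 30, 60, 120, 240 and 480 min of each. On each of the 12 two-colour arrays the starved cells carried the red dye (Cy5) and cells from before the starvation the green dye (Cy3). A log2 ratio of -1 therefore stands for a signal 2-fold lower than before the starvation. There was 1 array for each starvation and time point, so the 3 early time points (10, 30 and 60 min) of a starvation served as its observations, and an SE given here includes the course over time. All arrays share the pre-starvation RNA and the dye orientation. The ratios are dye-normalized within each array, so a fall of all mRNA per cell cannot be told from them.

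Making ribosomes takes up much of the synthesis of a growing yeast cell. Ribosomal RNA is transcribed by RNA polymerase I in the nucleolus, where many assembly factors fold, modify and cut it while ribosomal proteins join, and the small and the large subunit then leave the nucleus by separate routes. The genes for these assembly factors (the ribosome biogenesis regulon), for ribosomal proteins and for tRNA modification are transcribed strongly when glucose and nitrogen are plentiful, through the TOR and protein kinase A pathways, and are repressed in many stresses.

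The arrays were not alike. On the 3 early carbon arrays and the nitrogen array at 10 min red was well above background for 42.7 to 78.4% of the spots, against 84.8 to 93.4% for the 8 others. These 4 arrays were also the ones whose ratios did not match the column of the same label in the transcript table that accompanies the study, whereas the 8 others did. The median ratio over the 5560 genes tested lay between -0.29 and 0.15 on all 12 arrays. As a check of the labels, the median of 10 glucose-repressed genes was 0.56, 0.39, 5.65, 6.04, 7.86 and 6.65 from 10 to 480 min of carbon starvation and 0.16, 0.48, 1.09, 0.90, 2.16 and 2.75 in nitrogen starvation. The median of 10 genes under nitrogen catabolite repression was 0.54, 0.33, 1.98, 1.64, 1.46 and 1.14 in nitrogen starvation and between -2.27 and -0.31 in carbon starvation. No early carbon array lies outside the 4, so the deposited arrays give no early carbon values without them. The transcript table of the study has early carbon columns, which served here only for this match.

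What the members are could be read from the current gene table of the R64 assembly, which the rule did not use. On the array 108 of the 109 carried the annotation "biological process unknown", as did 2068 of all 2118 unnamed genes. Of the members 78 now have a symbol, 16 are listed without one and 15 are not listed there. Grouped by the known roles of their symbols, 18 members act in assembly of the large ribosomal subunit, 15 in assembly of the small subunit and its nucleolar precursors, 14 in translation or the modification of translation factors and ribosomal proteins, 11 in tRNA maturation, 9 at membranes or in transport, 3 in metabolism and 8 elsewhere. The grouping was made by hand with the member list in view and carries no test of enrichment.

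**Figure D1:**
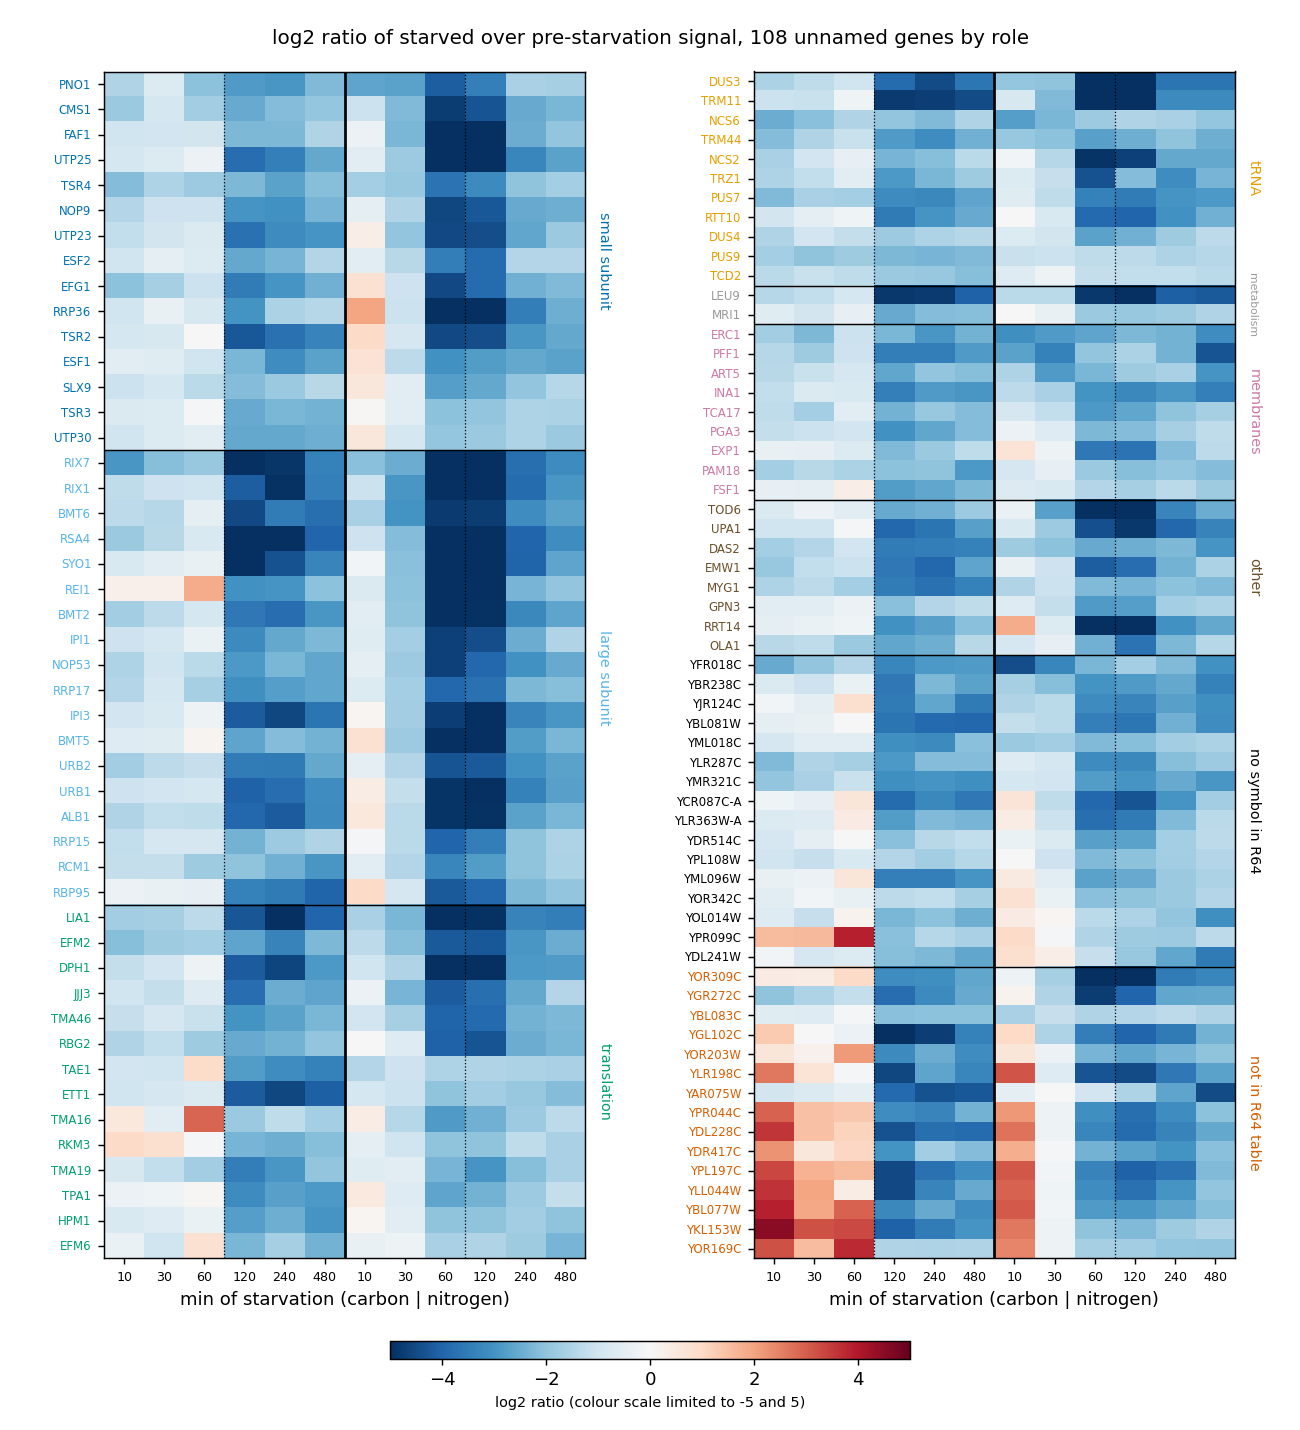
Each row is 1 gene, 108 of the 109, grouped by role, and each column is 1 array, with the carbon starvation arrays left and the nitrogen starvation arrays right of the thick line and the late arrays right of each dotted line. Colour gives the log2 ratio of starved over pre-starvation signal, limited to -5 and 5. All late columns are blue because the rule chose them so. The rows at the bottom are the 15 genes not listed in the R64 table. Of these 9 were above 0 on every array from 10 to 60 min of carbon and at 10 min of nitrogen starvation.

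The late values are a description, since the rule used them. RSA4, a factor of late nuclear large subunit maturation, had a mean over the 6 late arrays of -4.53, with -5.24, -5.12 and -3.96 at 120, 240 and 480 min of carbon starvation and -5.80, -3.96 and -3.12 at the same times of nitrogen starvation. LEU9, an alpha-isopropylmalate synthase of the leucine pathway, had a late mean of -4.54 and stood about as low in both starvations, at -4.83, -4.78 and -4.04 in carbon and -5.28, -4.08 and -4.20 in nitrogen starvation. These means of LEU9 and RSA4 were the lowest of all members. Low too were SYO1 (-4.44), TRM11 (-4.37), RIX7 (-4.30), LIA1 (-4.20) and RIX1 (-4.13). The deepest single value of all was -7.14, that of SYO1 at 120 min of nitrogen starvation. Of these genes RSA4, RIX7, RIX1 and SYO1 serve the large ribosomal subunit, TRM11 modifies tRNA, and LIA1 modifies a translation factor.

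At the threshold the highest late value was -1.207 for TPA1 (480 min of nitrogen starvation), -1.215 for TCD2 (120 min of nitrogen starvation) and -1.231 for YDR514C (480 min of carbon starvation). Just outside lay YDL050C with -1.198 at 480 min of carbon starvation, TMA20 with -1.192 at 240 min of nitrogen starvation and DPH6 with -1.166 at 120 min of carbon starvation. In all, 28 unnamed genes missed the rule on 1 array. The red signal of 76 members was well above background on all 6 late arrays. For the other 33 at least 1 late value rests on a red signal near background and can be too high or too low.

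Over all members the median ratio was -3.07, -2.75 and -2.53 at 120, 240 and 480 min of carbon starvation and -3.46, -2.42 and -2.20 in nitrogen starvation. For 44 members the late mean was lower in nitrogen and for 65 in carbon starvation. Only 16 differed by 1 or more, 7 of them lower in nitrogen and 9 lower in carbon starvation. ETT1, a factor of translation termination, was lower in carbon starvation, with -4.16, -4.57 and -4.08 in carbon against -1.73, -1.88 and -2.16 in nitrogen starvation. RRP36, a component of the small subunit precursor, went the other way, with -3.01, -1.57 and -1.42 in carbon against -5.99, -3.46 and -2.44 in nitrogen starvation.

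The 6 early arrays were not used by the rule, so on them the members could be tested. They share the pre-starvation RNA with the late arrays, so they are not fully independent of the choice of members. In nitrogen starvation the members stood lower at each later early time, with medians of -0.45, -1.25 and -3.28 at 10, 30 and 60 min. By 60 min 108 of 109 stood at -1 or lower, where 20.1% of the 5541 genes with a value did. At 30 min 68 did, against 12.9% of all genes, and at 10 min 28 did, against 18.3%. In carbon starvation the medians were -0.99, -0.89 and -0.63, with no further step within the first hour. At -1 or lower were 53 members at 10 min (all genes 17%), 43 at 30 min (12.3%) and 35 at 60 min (16.2%). The step to the level of the late arrays lay between 60 and 120 min in carbon starvation, from a median of -0.63 to -3.07, and between 30 and 60 min in nitrogen starvation, from -1.25 to -3.28. The array at 60 min of carbon starvation is one of the 4 that stand apart, and its part in this timing was not tested.

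Mean early ratios were tested against 0 with limma over all 5560 genes, and a gene was called at an adjusted p (Benjamini-Hochberg) under 0.05. In early nitrogen starvation 33 of the 109 members were called lower and none higher, against 10.4% lower and 7.81% higher of all genes. The members' median early ratio was -1.60 and that of all genes 0.01. In early carbon starvation 18 members were called lower and 3 higher, against 13.5% lower and 10.3% higher of all genes, so the members' share of 16.5% lower was near the background. Their median was -0.80 and that of all genes -0.20. Without an adjustment 69 members (63.3%) in nitrogen and 34 (31.2%) in carbon starvation had a p under 0.05, in either direction, against 40.4% and 40.6% of all genes. At -1 or lower on all 3 early arrays were 28 members in nitrogen (4.64% of all genes) and 27 in carbon starvation (5.97%). The 471 named genes that met the same late thresholds had 171 called lower in early nitrogen and 79 in early carbon starvation, with medians of -1.55 and -0.84.

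These counts rest on few arrays. Without the nitrogen array at 10 min, 1 of the 4 that stand apart, 57 members were called lower in nitrogen starvation, against 7.96% of all genes. Without the carbon array at 10 min or the nitrogen array at 30 min no member was called lower in nitrogen starvation, and neither was any other gene. Without the carbon array at 30 min 6 members were, against 0.67% of all genes. In carbon starvation 0, 1 and 5 members were called lower without the carbon array at 10, 30 and 60 min. Without the nitrogen array at 30 min 9 were, and 55 without that at 60 min. Of all genes 0, 0.40, 4.85, 3.98 and 26.6% were called lower in these fits, in the same order. None of the calls in either starvation held without each of the 6 arrays in turn. The lower calls in carbon starvation also moved with the scaling. With red and green totals made equal, as the methods of the study state, 37 members (1775 of all genes lower and 392 higher) were called lower, with median centring 11 (394 lower and 735 higher), and after normexp and loess 0 (0 lower and 4 higher), against the 750 lower and 574 higher genes of the values used here.

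The early difference between the starvations was called for no gene, 0% in either direction. Its smallest adjusted p was 0.172 over all genes and 0.198 among the members. At an unadjusted p under 0.05 were 17 members (15.6%) and 15.9% of all genes. Nitrogen lay below carbon in 95 of the 109 members, with a median difference of -1.02, where all genes had 0.12.

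**Figure D2:**
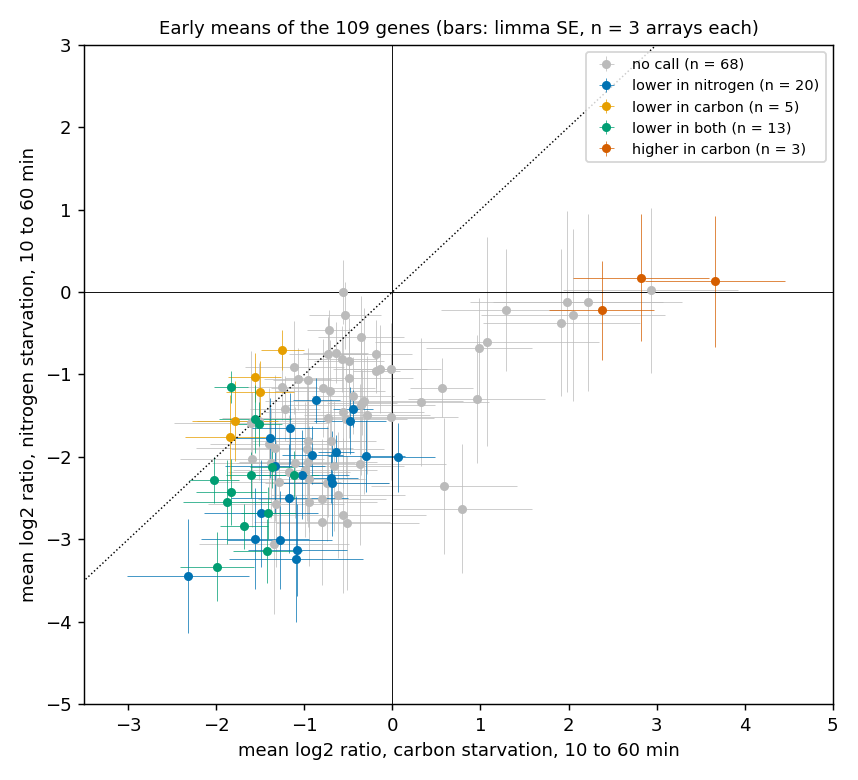
Each point is 1 of the 109 genes, at its mean log2 ratio over 10, 30 and 60 min of carbon (x) and of nitrogen starvation (y), with limma's SE, and coloured by the calls at an adjusted p under 0.05. Most points lie below the dotted line of equal values (95 of 109), and the genes called higher in carbon starvation lie at right, near 0 in nitrogen starvation.

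The 18 factors of large subunit assembly had the lowest medians of all roles at 30, 60 and 120 min of nitrogen starvation, with -0.50, -1.78, -4.84, -4.94, -3.04 and -2.58 from 10 to 480 min. In carbon starvation the medians were -1.24, -0.97, -0.86, -3.54, -3.53 and -3.01. In early nitrogen starvation 5 of the 18 were called lower (RIX7, RIX1, BMT6, RRP17 and RCM1), and in early carbon starvation none was. RIX7, an ATPase that removes assembly factors from precursors of the large subunit, had ratios of -2.07, -2.46 and -5.79 at 10, 30 and 60 min of nitrogen starvation, a mean of -3.44 ± 0.69 (SE, n = 3, adjusted p = 0.0261). In early carbon starvation it was at -2.92, -2.14 and -1.91, -2.32 ± 0.69 (SE, n = 3, adjusted p = 0.0524). Its red signal was not well above background on any of these 3 arrays, so the measured 5-fold fall is uncertain. RIX7 was low on all 12 arrays.

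RIX1, which with IPI1 and IPI3 forms a complex of late nuclear maturation, was at -1.08, -2.90 and -5.73 in early nitrogen starvation, -3.24 ± 0.76 (SE, n = 3, adjusted p = 0.0359). IPI1 was at -0.59, -1.69 and -4.67 and IPI3 at 0.10, -1.74 and -4.69 at these times, with adjusted p of 0.0598 and 0.096. The 3 subunits followed 1 course, from between -1.08 and 0.10 at 10 min to between -5.73 and -4.67 at 60 min. BMT6, a methyltransferase of the large ribosomal RNA like BMT2 and BMT5, was at -1.61, -3.0 and -4.78, -3.13 ± 0.56 (SE, n = 3, adjusted p = 0.0231). SYO1, which carries the ribosomal proteins Rpl5 and Rpl11 into the nucleus together, had -0.15, -2.10 and -5.88 at these times and did not pass the test, at -2.71 ± 0.94 (SE, n = 3, adjusted p = 0.0827).

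REI1, a factor of cytoplasmic large subunit maturation, differed from the others in carbon starvation. Its early ratios there were 0.26, 0.26 and 1.87, 0.79 ± 0.79 (SE, n = 3, adjusted p = 0.482), and in nitrogen starvation -0.73, -2.05 and -5.10, -2.63 ± 0.79 (SE, n = 3, adjusted p = 0.0586). The 2 sets of values do not overlap, but the difference of -3.42 missed the threshold, with an adjusted p of 0.253. By 120 min of carbon starvation REI1 was at -3.02.

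The 15 small subunit factors had medians of 0.05, -1.40, -4.5, -3.86, -2.50 and -1.97 from 10 to 480 min of nitrogen and -1.01, -0.78, -0.90, -2.58, -2.66 and -2.31 of carbon starvation. PNO1, CMS1 and TSR4 were called lower in early nitrogen starvation, and PNO1 and TSR4 in early carbon starvation as well. PNO1, which binds the precursor of the small subunit close to the site of its last cut, was at -2.63, -2.68 and -4.11 in early nitrogen, -3.14 ± 0.39 (SE, n = 3, adjusted p = 0.0142), and at -1.51, -0.69 and -2.07 in early carbon starvation, -1.42 ± 0.39 (SE, n = 3, adjusted p = 0.0419). It was thus below 0 from 10 min on in both, but its early carbon values all come from arrays that stand apart. Its carbon call held in 5 of 9 other settings and in 2 of 6 fits with an array left out. TSR4, a chaperone of the ribosomal protein Rps2, was at -1.69, -1.90 and -3.68 and -2.15, -1.52 and -1.82, with adjusted p of 0.0217 and 0.0244.

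Others were higher than before the starvation at 10 min of nitrogen starvation and very low at 60 min. RRP36 went through 1.98, -1.08 and -5.49 and TSR2, a chaperone of Rps26, through 0.97, -0.83 and -4.52. UTP23 and EFG1 had 0.32, -1.97 and -4.52 and 0.77, -1.04 and -4.5. Of the 15, 8 stood above 0 on the array at 10 min, and none at 30 min. That array is 1 of the 4 that stand apart, and its part in these values was not tested. UTP25, FAF1 and NOP9, components or partners of the small subunit precursor, were below 0 on all 3 arrays and reached -5.05, -5.06 and -4.56 at 60 min.

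**Figure D3:**
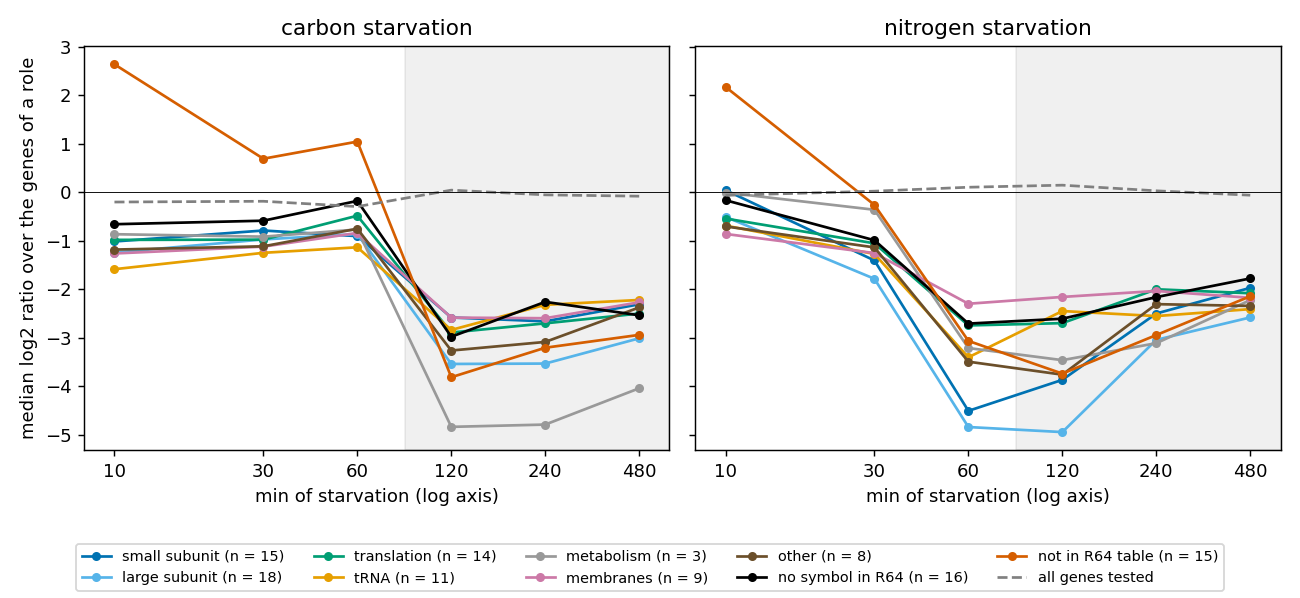
Lines give the median log2 ratio over the genes of each role at each time of carbon (left) and nitrogen starvation (right), on a log axis of minutes, with the number of genes in the legend and all genes tested as a dashed line. The grey area marks the late arrays that chose the genes. At 60 min of nitrogen starvation the large subunit factors had a median of -4.84 and the membrane genes -2.29.

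The 14 translation genes were led by modifiers of translation factors. LIA1, the hydroxylase that completes hypusine on the translation factor eIF5A, was called lower in early nitrogen starvation, at -1.60, -2.28 and -5.08, -2.99 ± 0.61 (SE, n = 3, adjusted p = 0.0266). In early carbon starvation it was at -1.73, -1.66 and -1.30, with an adjusted p of 0.105. Its late values, -4.27, -5.20 and -3.98 in carbon and -4.94, -3.33 and -3.47 in nitrogen starvation, were among the lowest of all members. EFM2, a lysine methyltransferase of elongation factors, was called lower in both starvations, at -1.32, -2.14 and -4.18 in early nitrogen and -2.12, -1.79 and -1.72 in early carbon starvation. In the latter its red signal was not well above background, so the measured 3.68-fold fall is uncertain. ETT1 and TMA46 were called lower in nitrogen starvation, with adjusted p of 0.0265 and 0.0378. DPH1 and JJJ3, of the synthesis of diphthamide on elongation factor 2, were at -1.0, -1.52 and -5.02 and -0.31, -2.34 and -4.17 and did not pass the test.

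RKM3 and HPM1, methyltransferases of ribosomal proteins of the large subunit, were less low, at -2.0 and -2.02 at 60 min of nitrogen starvation. TMA16 and RKM3 stood above 0 in part of early carbon starvation, at 0.53, -0.57 and 2.90 and 0.95, 0.82 and -0.10. Neither was called.

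The 11 tRNA genes held 5 of the 18 lower calls in early carbon starvation (NCS6, TRM44, PUS7, PUS9 and TCD2) and 4 of the 33 in nitrogen starvation (DUS3, NCS6, TRM44 and PUS9). NCS6, which with NCS2 and Urm1 thiolates the wobble uridine of tRNAs, was at -2.47, -2.10, -1.5, -1.99, -2.20 and -1.5 from 10 to 480 min of carbon and -2.77, -2.27, -1.81, -1.49, -1.63 and -1.94 of nitrogen starvation. Its early means were -2.02 ± 0.28 (SE, n = 3, adjusted p = 0.0113) and -2.28 ± 0.28 (SE, n = 3, adjusted p = 0.0142). It was lower at 10 than at 480 min in both. Its partner NCS2 was at -0.14, -1.44 and -4.89 in early nitrogen starvation, a course like that of the ribosome assembly genes, and did not pass the test.

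PUS9, a pseudouridine synthase, was nearly level, at -1.72, -1.99 and -1.79 in early carbon and -1.09, -1.09 and -1.26 in early nitrogen starvation, with adjusted p of 0.00873 and 0.0219. TRM44, a methyltransferase, was at -2.17, -1.51 and -1.13 and -1.90, -2.05 and -2.72. On the early carbon arrays the red signals of NCS6, PUS9, PUS7 and TRM44 were not well above background. Their measured falls there, 4.06-fold, 3.57-fold, 3.6-fold and 3.04-fold, are thus uncertain. TRM11, a subunit of a guanosine methyltransferase, went from -0.79 at 10 min to -5.93 at 120 min of nitrogen starvation and missed the threshold, at -2.79 ± 0.77 (SE, n = 3, adjusted p = 0.0505). DUS3, a dihydrouridine synthase, passed it, at -1.94, -2.03 and -5.05, -3.01 ± 0.59 (SE, n = 3, adjusted p = 0.0256).

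Several of the 9 membrane genes were low at 10 min already, and 5 of the 9 were called lower in early nitrogen and 4 in early carbon starvation. ERC1, a transporter of the multidrug and toxin extrusion family, was at -3.06, -2.82, -2.65, -2.26, -2.38 and -3.10 from 10 to 480 min of nitrogen starvation. PFF1, a protease of the vacuolar membrane, was at -2.69, -3.39, -1.97, -1.60, -2.37 and -4.32, least low at 120 min. ART5, an adaptor that directs a ubiquitin ligase to membrane transporters, was at -1.54, -2.82 and -2.29 in early nitrogen starvation with a red signal not well above background on any of the 3 arrays, so it was at least 3.65-fold lower. All 3 were called lower in both starvations. On the early carbon arrays their red signals were not well above background either. The measured falls there of ERC1 and PFF1, 3.21-fold and 2.66-fold, are thus uncertain, and ART5 was at least 2.03-fold lower. PAM18, a subunit of the mitochondrial import motor, was called lower in carbon starvation, at -1.71, -1.39 and -1.60, -1.56 ± 0.30 (SE, n = 3, adjusted p = 0.0175). In early nitrogen starvation it was at -0.86, -0.42 and -1.84, with an adjusted p of 0.0539.

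In all, 20 members had no red signal well above background on any early carbon array, among them 9 of the 18 called lower there. For ART5 the fold changes are given as lower bounds. They were computed against the higher of the gene's own red signal and the lowest red signal counted as well above background on each array. Computed this way, the early carbon values of RIX7, EFM2, NCS6, PUS9, PUS7, TRM44, ERC1, PFF1 and DAS2 equal their measured ratios. For these no lower bound is given. Their ratios, and the bounds of ART5, are only as sure as the dim red signals they rest on.

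Among the 3 metabolic genes LEU9 was called lower in early nitrogen starvation, at -1.36, -1.34 and -4.81, -2.50 ± 0.66 (SE, n = 3, adjusted p = 0.045). MRI1, an enzyme of methionine salvage, was at 0.00, -0.36 and -1.85 in early nitrogen starvation.

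TOD6, a DNA-binding repressor of the ribosome biogenesis regulon, was itself a member. It was at -0.34, -2.72, -5.34, -5.25, -3.29 and -2.49 from 10 to 480 min of nitrogen starvation and at -0.71, -0.28, -0.55, -2.51, -2.39 and -1.81 of carbon starvation, with an early nitrogen mean of -2.80 ± 0.81 (SE, n = 3, adjusted p = 0.0545), which missed the threshold. GPN3, which acts in the assembly of RNA polymerase II, was at -0.65, -1.19 and -2.85 in early nitrogen starvation and was called lower with an adjusted p of 0.0439. OLA1, an ATPase of the Obg family, was called lower in carbon starvation, at -1.37, -1.29 and -1.84. MYG1 and DAS2 were called lower in both starvations, MYG1 at -1.56, -1.29 and -1.69 in early carbon and -1.51, -1.08 and -2.21 in early nitrogen starvation. The red signal of DAS2 was not well above background on any early carbon array. RRT14 went through 1.84, -0.68 and -5.12 in the first hour of nitrogen starvation and was not called.

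The 16 members listed in the R64 table without a symbol had medians of -0.16, -0.99, -2.70, -2.60, -2.16 and -1.77 in nitrogen and -0.66, -0.58, -0.17, -2.97, -2.26 and -2.53 in carbon starvation. In early nitrogen starvation 6 were called lower. YFR018C had the lowest ratio of any member at 10 min of nitrogen starvation, with -4.42, -3.28 and -2.30, -3.33 ± 0.42 (SE, n = 3, adjusted p = 0.0142), and its course was then upward, to -1.69 at 120 min, and down again, to -3.02 at 480 min. YBR238C was at -1.67, -2.13 and -2.98, YJR124C at -1.5, -1.34 and -3.16, YBL081W at -1.18, -1.36 and -3.43, YML018C at -1.86, -1.76 and -2.21 and YMR321C at -0.88, -0.95 and -2.79 at 10, 30 and 60 min. YML018C was nearly level over these times, and YMR321C changed mainly between 30 and 60 min.

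In early carbon starvation YFR018C, YLR287C and YMR321C were called lower, at -2.53, -1.98 and -1.47, -2.20, -1.51 and -1.64 and -1.95, -1.61 and -1.11. YLR287C was at -0.65, -0.88 and -3.16 in early nitrogen starvation. YPR099C was called higher in early carbon starvation, at 1.59, 1.64 and 3.90, 2.37 ± 0.60 (SE, n = 3, adjusted p = 0.0339), and then stood at -2.10, -1.41 and -1.64. It alone among the 94 members of the R64 table was above 0 on each of the 4 arrays that stand apart.

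YDL241W and YOL014W became low late in nitrogen starvation. YDL241W went through 0.79, 0.35, -1.15, -1.90, -2.61 and -3.54 from 10 to 480 min and YOL014W through 0.42, 0.10, -1.36, -1.53, -1.97 and -3.08, both lowest at the last array. The remaining 6, YCR087C-A, YLR363W-A, YDR514C, YPL108W, YML096W and YOR342C, were lowest at 60 or 120 min. YCR087C-A was the deepest of them, with 0.63, -1.26, -3.93, -4.32, -2.96 and -1.74, and YOR342C the shallowest, with 0.76, -0.33, -2.07, -2.0, -1.85 and -1.47. None of these 8 was called in either starvation.

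The 15 members not listed in the R64 table behaved differently on the early arrays. Their medians were 2.64, 0.69 and 1.05 at 10, 30 and 60 min of carbon starvation, where the 94 listed members had -1.09, -0.96 and -0.76. At 10 min of nitrogen starvation the medians were 2.18 and -0.57. At 30 min of nitrogen starvation they were -0.26 and -1.34, with 4 of the 15 and 64 of the 94 at -1 or lower. At 60 min they were -3.06 and -3.45, so that the 15 were low by then like the rest. After normexp and loess the early carbon medians lay closer together. They were 1.03, 0.35 and 0.30 for the 15 and -0.33, -0.33 and -0.11 for the 94. YKL153W was highest, at 4.5, 3.17 and 3.32 in early carbon starvation, 3.66 ± 0.80 (SE, n = 3, adjusted p = 0.024), and -4.03, -3.48 and -2.94 late in it. YOR169C was called higher too, at 3.2, 1.54 and 3.72. YBL077W, at 3.88, 1.95 and 2.96, was not called, with an adjusted p of 0.0747. Above 0 on all 4 arrays that stand apart were 9 of the 15 and 1 of the 94.

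The raised level on these 4 arrays was shared by unlisted genes that are no members. Many unlisted genes were dim before the starvation, so the others were taken by that signal alone, which leaves 81 of 457 with green well above background on all 12 arrays. Their medians were 1.38, 1.03, 1.58 and 0.79 on the 3 early carbon arrays and the nitrogen array at 10 min, and between 0.06 and 0.53 on the 8 others. Of the 81 genes 47 (58.0%) were above 0 on each of the 4 arrays, against 846 (17.0%) of 4967 other genes of the R64 table kept the same way. Why the 4 arrays differ in these genes was not tested, and early carbon values of the 15 cannot be told apart from it.

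For 14 of the 15 the array also holds a gene with the next lower or higher number on the same chromosome arm. For 10 such a neighbour met the late thresholds as well, counting EFG1 beside YGR272C. Of all genes with a clear pre-starvation signal 11.2% met them, but how many have such a neighbour was not counted. Some neighbours were higher late: ATG8 beside YBL077W, OXR1 beside YPL197C, CDC27 beside YBL083C and FPS1 beside YLL044W. Their late means were 4.23, 2.34, 1.66 and 1.38. YLR198C lies next to NOP56, a core protein of the box C/D snoRNPs (SIK1 on the array), which was at -0.31, -0.19, 0.08 and 0.02 on the 4 arrays, where YLR198C was at 2.64, 0.69, -0.10 and 3.15. Late means were -4.41 for NOP56 and -3.53 for YLR198C. YOR309C lies next to NOP58, at -2.12, -1.96, -2.23 and -1.19 against 0.41, 0.39, 0.96 and -0.24, with late means of -4.65 and -3.55. YDL228C lies next to SSB1, a ribosome-bound chaperone, with late means of -3.62 and -3.96, and YLL044W next to RPL8B, with -3.16 and -3.82. Both genes of each of these pairs were low late, whereas on the 4 arrays the unlisted gene stood higher, except YLR198C at 60 min of carbon starvation.

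Other neighbours that met the late thresholds were RPL12B, RPL28, ILS1, ALG3, HIS3 and DED1. YGR272C is an older name of EFG1 in the R64 table, and the 2 entries on the array gave 0.17, -1.5, -4.75, -3.97, -2.59 and -2.58 and 0.77, -1.04, -4.5, -3.86, -2.42 and -2.20 in nitrogen starvation, so they count as 2 of the 109 but measure 1 gene. Where an open reading frame overlaps a neighbour on the same strand, labelled RNA of the one can bind the probe of the other. By the strand letter of their names (W or C), NOP58, ALG3, HIS3, DED1 and EFG1 share the strand of the unlisted gene. NOP56, SSB1, RPL8B, RPL12B, RPL28 and ILS1 have the other strand. Which RNA a probe bound cannot be told here and was not tested. YAR075W, YBL083C and YGR272C stood below 0 on the 3 early carbon arrays. YAR075W became low late in nitrogen starvation, through -0.45, 0.03, -0.97, -1.56, -2.65 and -4.46, and YBL083C was called lower in early nitrogen starvation, at -1.61, -1.14 and -1.5, -1.42 ± 0.22 (SE, n = 3, adjusted p = 0.0196).

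**Figure D4:**
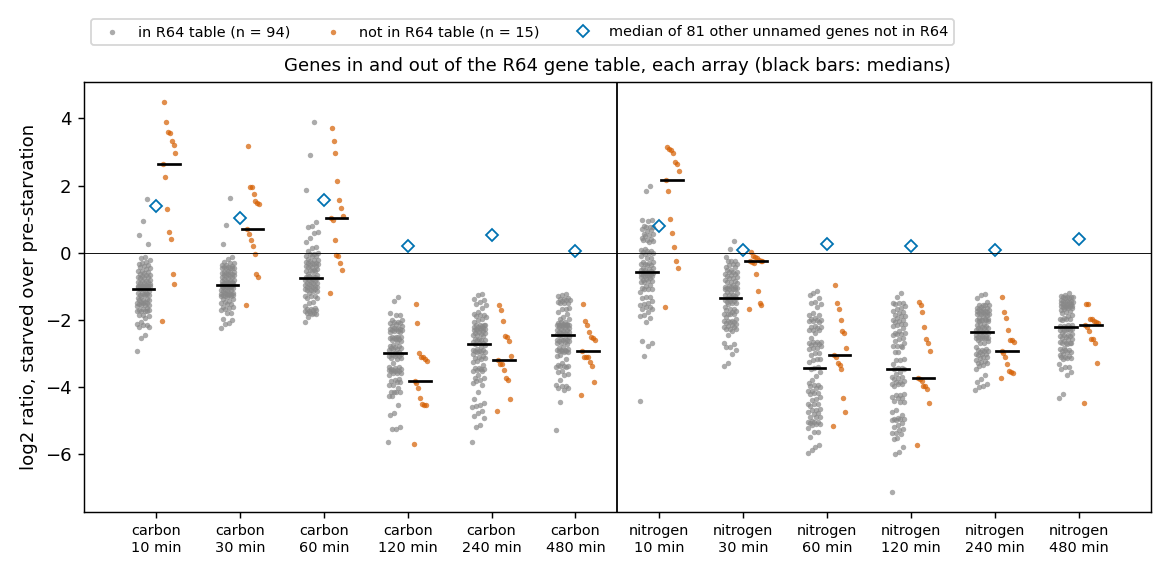
Points are single genes at their log2 ratio on each array, grey for the 94 genes listed in the R64 table and orange for the 15 that are not, with medians as black bars. Diamonds give the median of 81 other unnamed genes not in the table, with green well above background on all 12 arrays. Orange points lie mostly above 0 at 10, 30 and 60 min of carbon and at 10 min of nitrogen starvation, near 0 at 30 min of nitrogen starvation, and among the grey ones on the other arrays.

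From 120 to 480 min the members came back in part, more in nitrogen starvation. This is a description, since the rule used both arrays and held every member at -1.2 or lower. In nitrogen starvation 87 of 109 were higher at 480 than at 120 min, 65 of them by 1 or more, with a median change of 1.37. In carbon starvation 94 were higher, 20 by 1 or more, with a median of 0.51. The size of the rise depends on the scaling. With equal totals the median over members went from -3.04 to -2.35 in nitrogen and from -3.01 to -2.83 in carbon starvation, smaller rises. Counts by 1 or more were made only for the values used here. All 18 large subunit factors were up by 1 or more in nitrogen starvation, with a median of 2.25, and 12 of the 15 small subunit factors, with a median of 1.79. SYO1 changed most, by 4.50. Of the 9 membrane genes 6 were lower at 480 than at 120 min, with a median of -0.13 and PFF1 lowest at -2.72. Lower by 1 or more in nitrogen starvation were 6 members.

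**Figure D5:**
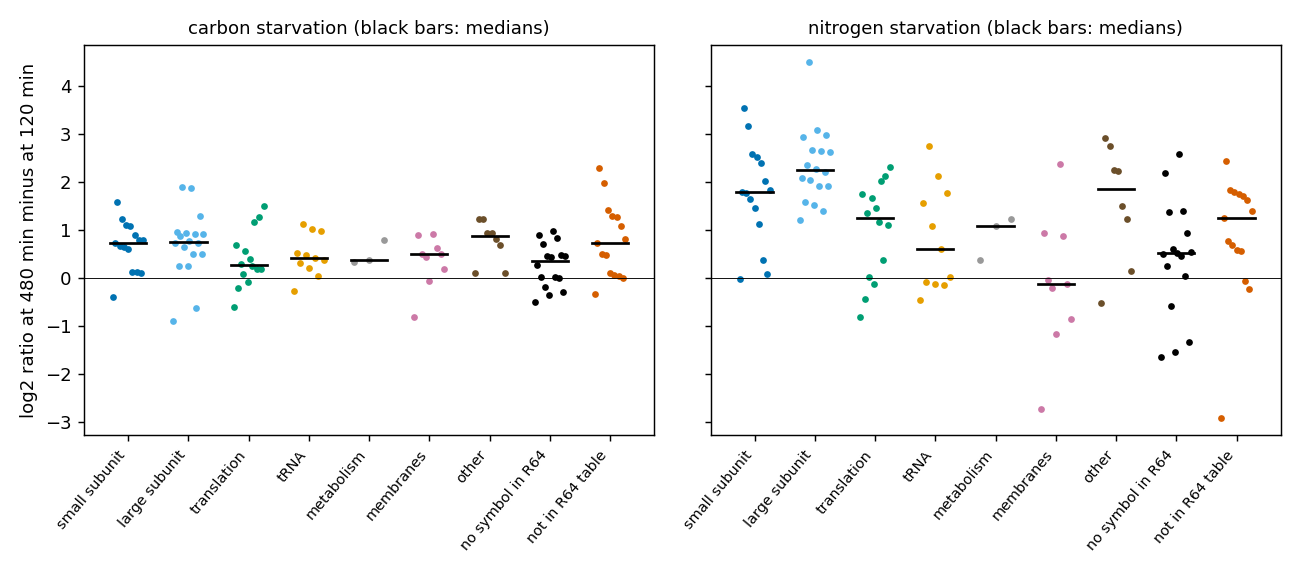
Each point is 1 gene, at its log2 ratio at 480 min minus that at 120 min of carbon (left) and nitrogen starvation (right), by role, with medians as black bars. In nitrogen starvation all large subunit points lie above 1, and the membrane genes lie around 0 with PFF1 at the bottom.

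The pathway around the members was read from lists of named genes. Of 108 named ribosome assembly genes 94 met the late thresholds, and 31 were called lower in early nitrogen and 2 in early carbon starvation, with none higher. Their medians were -0.31, -1.74, -5.08, -5.15, -3.12 and -2.50 from 10 to 480 min of nitrogen and -1.07, -0.79, -0.76, -3.92, -3.81 and -2.80 of carbon starvation. Of 7 named subunits of RNA polymerase I 6 met the thresholds, with 2 called lower in early nitrogen and 1 in early carbon starvation. Of 137 ribosomal protein genes 100 met them, with 15 called lower in early nitrogen, 3 lower and 1 higher in early carbon starvation. In early nitrogen starvation 28.7% of the assembly list and 10.9% of the ribosomal protein genes were thus called lower, against 10.4% of all genes. In early carbon starvation the shares were 1.85% and 2.19%, below the 13.5% of all genes. Ribosomal protein medians were 0.21, 0.01, -2.96, -4.02, -2.89 and -1.73 in nitrogen starvation, so that at 30 min they were near 0 while the assembly list stood at -1.74 and the large subunit members at -1.78.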

How the data were processed

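Scanner files deposited by the authors come from Feature Extraction A.7.5.1. Per the file headers they give processed intensities (corrected for background and dye) of each colour and their log10 ratio, red over green. The deposited series table holds log2 ratios that equal these within 5e-04. Poly(A)+ RNA was amplified to labelled cRNA before hybridisation, per the methods of the study.

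Log2 ratios were computed from the processed intensities with no further scaling, as the rule for the members does. Equal totals, which the methods state, would shift single arrays by -0.68 to 0.42 and were tried as an alternative. The tests dropped spots marked as outliers or dim in both colours, and averaged the spots of a gene (70 members have 2 spots, 39 have 1). The 6 early arrays were fitted by limma (version 3.58.1, R 4.3.3, lmFit and eBayes) with a coefficient per starvation, so that the SE is shared, for the 5560 genes that had 2 or more values in both starvations. Calls were made at a Benjamini-Hochberg adjusted p under 0.05. The steps were tested on simulated data. Figures were drawn with matplotlib 3.10.9.

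Alternatives were equal totals, median centring, normexp (offset 50) with loess, the series table, no filter on dim spots, genes clear of background in both colours on all 6 early arrays, each array left out, all 12 arrays in 4 groups, the slide as a random block (10 slides, 2 with 2 arrays), the time point as a block, a trended robust variance, and other thresholds for the members. The time point pairs the arrays of the starvations by the labels.

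The members, lists and tests were chosen with earlier results of these data known. Values of 1 member are not reported here. Named in the text are (that member left out) the 8 lowest members late, the 5 lowest and 5 highest early in each starvation, those nearest the threshold, those without a symbol in the R64 table, and, chosen after their values were seen, further called genes and examples of each role. Symbols come from the RefSeq R64 gene table, which lists 5756 of the 6256 array genes. Roles were assigned by hand, because product texts, promoters and proteins were not used here, and the promoter motifs planned were not searched. The files name no genome build, so no coordinates are given. The number of arrays limits the precision. Filters kept on medium with both nutrients were not analysed here.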

Additional observations from a re-analysis of the deposited data

Results flagged for a closer look

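REI1 (YBR267W) was above its level before the starvation on all 3 early carbon arrays, at 0.26, 0.26 and 1.87, and below it on all 3 early nitrogen arrays, at -0.73, -2.05 and -5.10, a difference of -3.42. The limma test of this difference missed the threshold, with an adjusted p of 0.253.

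YOR309C, which is not listed in the R64 table and has the number next to NOP58, showed the same opposition, at 0.41, 0.39 and 0.96 in early carbon and -0.24, -1.67 and -5.16 in early nitrogen starvation, a difference of -2.94 with an adjusted p of 0.297. All early carbon values of both genes come from arrays on which the red signal was dim on many spots, and the part of this in the differences was not tested.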

How the results depend on the processing

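The number of members was 76 to 134 under the alternatives to the rule that were counted, within 1.5 times of 109, and 110 to 118 with 1 late array left out. It was not counted after normexp and loess, where the late values were less low. The medians over members were then -2.17, -1.51 and -1.59 at 120, 240 and 480 min of carbon starvation. In nitrogen starvation they were -2.19, -1.86 and -1.39. Members called lower in early nitrogen starvation (33) numbered 26 to 45 under the other scalings, no filter on dim spots and the robust variance, 12 of 62 with both channels well above background, and 69 with all 12 arrays, with or without the slide as a block. The fits of all 12 arrays take part of their spread from the late arrays, which the rule used, so the 69 is no support. With all 12 arrays in 4 groups 20.3% of all genes were called lower, against 10.4% in the fit of the early arrays. With 1 early array left out the count of members was 0 to 57. None was called higher in any setting.

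Members called lower in early carbon starvation (18) numbered 37 with equal totals, 11 with median centring, 0 after normexp and loess, 2 of 62 with both channels well above background, 29 with all 12 arrays, 30 with the slide as a block and 9 with the robust variance. The fits with all 12 arrays or the slide as a block hold the late arrays too. With all 12 arrays in 4 groups 23.9% of all genes were called lower. With 1 array left out the count of members was 0 to 55. Those called higher (3) numbered 0 after normexp and loess and 0 to 7 with 1 array left out. The carbon calls therefore depend on the scaling. The cause was not tested.

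For nitrogen minus carbon no member was called, nor with the time point as a replicate block (0). With all 12 arrays in the fit or the slide as a block 4 were called lower. These fits include the late arrays, and with all 12 arrays 2.5% of all genes were called lower. Leaving out an array leaves fewer residual degrees of freedom. Of 1052 values of single named genes under alternatives, 878 kept their call, 115 lost it, 59 gained one and none reversed.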
